A study of Mus musculus with 15 samples.

Results

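Leukemia stem cells (LSC) taken from gonadal adipose tissue (AT LSC) were set against LSC taken from the peripheral blood (BL LSC), across all genes of 1 comparison. Both groups came from mice transplanted with leukemia that carries the human oncogenes BCR-ABL and NUP98-HOXA9, a model of the blast crisis of chronic myeloid leukemia. The cells were collected 12 days after transplantation, the labels give female sex and an age of 3 months, and each group had 3 RNA-seq libraries. The series holds 15 libraries in 5 groups, and the levels in LSC of the bone marrow (BM LSC), of the spleen (SPL LSC) and in normal counterparts of the marrow (NBM) are given beside the comparison where they help to read it. The labels do not say how LSC were isolated, nor whether the libraries of a group are separate animals, so the spread behind the authors' p-values may be technical.

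Leukemia stem cells are the fraction of a leukemia that can renew itself and seed the disease in a new host. Gonadal fat is a tissue in which fat cells, stroma, vessels and immune cells lie side by side, and in which stored fat is broken down to fatty acids. Healthy blood carries cells in transit, few of which divide. Myeloid cells make primary granules early in their maturation and secondary granules later, and they turn on cytokine and chemokine genes within hours of sensing injury or microbes, largely through the transcription factor NF-kB.

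Genes were kept at 1 FPKM or more in either group, which left 8145 of 23359 genes. FPKM counts the fragments of a gene relative to its length and to the fragments sequenced, and the authors deposited 1 pooled value per group with lower and upper bounds that lie 2 standard deviations on either side. Of the kept genes, 7026 reached the level in both groups, 496 through AT LSC alone and 623 through BL LSC alone. A gene kept through 1 group alone passed the limit through the group where it was higher. Among the genes named below, Il1a, Cxcl1, Cxcl10, Nfkbid, Irg1 and Cebpe are examples kept through AT LSC alone. So are Epx, Chac1, Gadd45b, Gadd45a, Angptl4, Nlrp3, Ccr7 and Niacr1. Just inside the limit stood Barx2, whose higher group, BL LSC, had 1.00041 FPKM, and just outside it Sik1, at 0.999707 in BL LSC. The pooled columns held 1.96e+07 estimated fragments for AT LSC and 1.95e+07 for BL LSC, so the depth of both groups was close.

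Fold changes are log2 of AT LSC over BL LSC, and the value after ± is the standard error implied by the test statistic of the authors. The authors' deposited table runs the other way, blood over adipose, and its sign was turned round here. A gene was called where it had a test and a q-value below 0.05 in the authors' deposited table, whose q-values are adjusted over all 10 comparisons of the series. Of 8032 kept genes with a test, 511 were called (6.36%), 269 of them higher in AT LSC (3.35%) and 242 lower (3.01%). An adjustment within the comparison alone kept 162 higher (2.02%) and 78 lower (0.971%). Over all kept genes of the authors' deposited table the median fold was -0.17 and the median standard error 0.489, and the smallest folds called were 1.18 and -1.16.

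The split between directions depended on the scaling. Median centring, which added 0.105 to each log2 fold, gave 316 higher (3.93%) and 163 lower (2.03%) at the p-value that the authors' threshold corresponds to. Scaling by the total of estimated counts, which added 0.240, gave 399 higher (4.97%) and 106 lower (1.32%). Scaling by their upper quartile, which added 0.081, gave 300 higher (3.74%) and 175 lower (2.18%). The 113 kept genes without a test had no call.

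No kept gene of leukemic and normal stem cells on the list used was called between the groups. Hoxa9, a stem cell homeobox gene, had 2.63 FPKM in AT LSC and 2.78 in BL LSC, and its fold was -0.08 ± 0.49 (q 0.954 in the authors' deposited table). Meis1, which encodes a partner of HOX proteins, had 3.20 FPKM in AT LSC and 5.01 in BL LSC, with bounds that overlapped. Kit, the stem cell factor receptor of early progenitors, had 1.64 FPKM in AT LSC and 2.26 in BL LSC and was not called either (q 0.587 in the authors' deposited table). Of 12 tested genes on this list of stem and progenitor genes, 0 were called in either direction by Cuffdiff, against 6.36% of kept genes. At an unadjusted p below 0.05, 1 was lower. Changes smaller than the smallest folds called, 1.18 and -1.16, would be missed, so these genes are not shown to be unchanged. Their median was -0.24 against -0.17 over all kept genes. Without the limit of 1 FPKM, 21 had a test, of which 1 was called higher and 1 lower in AT LSC. Over all genes with a test, 4.01% were higher and 2.51% lower.

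Stromal markers stood apart in AT LSC. Of 14 such markers 9 reached the level kept, 7 of them through AT LSC alone. Without that limit 13 had a test, and the authors' deposited table called 10 higher and 0 lower in AT LSC, against 4.01% and 2.51% of all genes with a test. Dcn, which encodes the matrix proteoglycan decorin, had 21.0 FPKM in AT LSC and 0.0126 in BL LSC. Mgp, a matrix calcification inhibitor, had 8.38 and 0.166 FPKM in AT and BL LSC, Serping1, the C1 inhibitor of complement, 5.57 and 0.0124, and Sparc, a collagen-binding matrix protein, 4.55 and 0.0535. The summed FPKM of the list was 160 in AT LSC and 155 in BL LSC, because Gsn, an actin-severing gene that blood cells also express, made up 109 in AT LSC and 146 in BL LSC. Among kept genes outside the lists, Bgn, a matrix proteoglycan gene, had 2.45 FPKM in AT LSC and 0.00338 in BL LSC, Apod, an apolipoprotein gene, 4.19 and 0.00574, and Sparcl1, a relative of Sparc, 2.60 and 0.0222; these genes were picked with their values in view. The part of stromal RNA in the other differences was not tested.

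Of 10 fat cell markers 3 were kept and 0 of these were called by Cuffdiff, against 6.36% of kept genes. Adipoq, which encodes adiponectin, had 0.0304 FPKM in AT LSC and was listed at 0 in BL LSC, and Plin1, the lipid droplet coat of fat cells, had 0.00696 in AT LSC and 0.00983 in BL LSC. Cidec, which helps lipid droplets fuse, was below the level kept at 0.263 FPKM in AT LSC and 0.0101 in BL LSC, and was called higher in the authors' deposited table. The whole list summed to 54.6 FPKM in AT LSC and 41.8 in BL LSC, most of it from Fabp4, a fatty acid carrier also made by macrophages, at 46.2 in AT LSC and 31.8 in BL LSC. Of 2 kept and tested endothelial markers 1 was higher, Esam, an adhesion molecule of vessels and platelets, at 2.49 FPKM in AT LSC and 0.283 in BL LSC. Without the limit of 1 FPKM, 10 endothelial markers had a test. Of these, 3 were called higher and 0 lower in AT LSC, against 4.01% and 2.51% of all genes with a test. Their median fold was 1.72. Cdh5, the endothelial cadherin, was below the level kept, at 0.276 FPKM in AT LSC and 0.00106 in BL LSC.

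Markers of other blood cells differed by type, against 6.36% called over all kept genes. The authors' deposited table called 1 of 5 resident macrophage markers lower in AT LSC, 1 of 5 dendritic cell markers higher (Ccr7, the lymph node homing receptor, at 2.78 FPKM in AT LSC and 0.807 in BL LSC), and 0 of 9 mast cell and basophil markers. Of 7 erythroid markers 1 was higher and 1 lower, the lower being Alas2, the heme synthesis gene of red cells, at 1.23 FPKM in AT LSC and 4.24 in BL LSC. T and NK cell markers (6 tested) and B cell markers (1 tested) at the level kept gave 0 calls by Cuffdiff, and 0 at an unadjusted p below 0.05. Without the limit of 1 FPKM, 2 of 14 tested T and NK cell markers were called lower in AT LSC and 0 higher. Of 7 tested B cell markers 3 were then lower and 0 higher, against 2.51% and 4.01% of all genes with a test. The summed level of erythroid markers was 228 FPKM in AT LSC and 577 in BL LSC, most of it from hemoglobin and carbonic anhydrase genes.

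**Figure D1:**
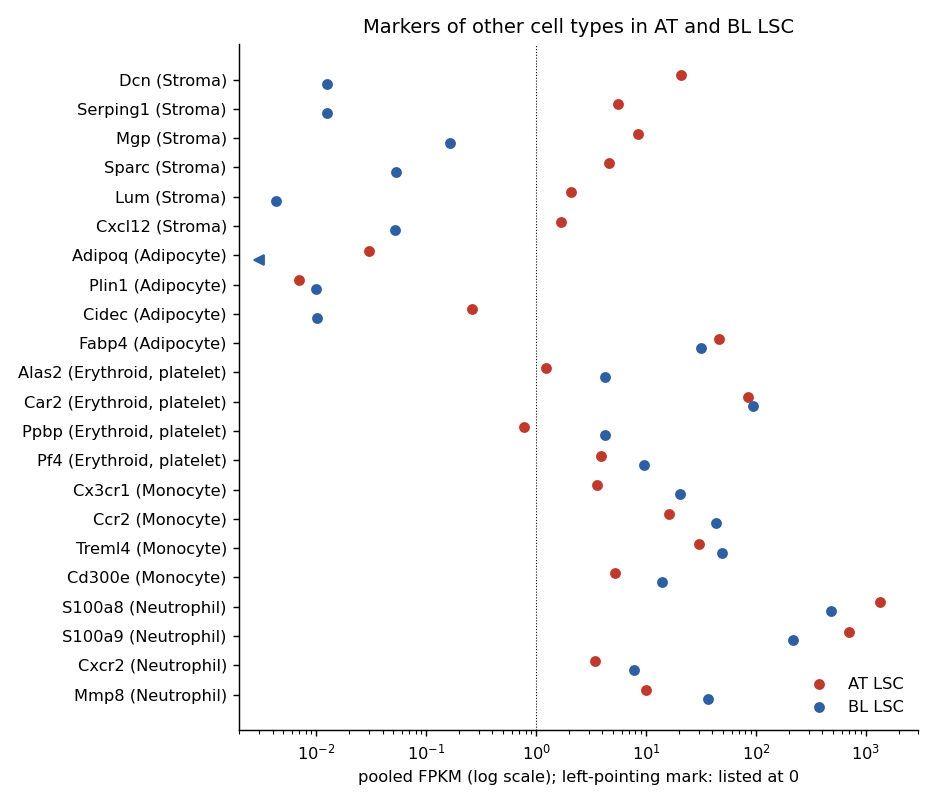
Pooled FPKM of markers of other cell types in AT LSC (red) and BL LSC (blue) on a log axis, with a dotted line at 1 FPKM. Stromal markers such as Dcn (21.0 against 0.0126) lie far apart, the fat cell marker Plin1 lies below 0.01 in both groups, and the monocyte markers shown lie lower in AT LSC.

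Cytokine genes gave some of the largest folds. The authors' deposited table called 5 of 12 tested cytokine genes higher and 0 lower in AT LSC, against 3.35% and 3.01% of kept genes. The median fold was 1.02, and AT LSC stood highest of all 5 groups in 8 of the 12, against 9.80% of kept genes. Csf2 (chromosome 11, 54247270 to 54249899, mm10, 1-based) encodes GM-CSF, the growth factor of granulocytes and macrophages. It had 79.8 FPKM in AT LSC, with bounds of 30.7 and 129, and 2.77 in BL LSC, with bounds of 1.63 and 3.91. Levels were 6.0 in BM LSC, 2.52 in SPL LSC and 0.286 in NBM, so AT LSC stood above all other groups. The fold was 4.85 ± 0.53, with a q listed at 0 in the authors' deposited table.

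Interleukin genes followed the same direction. Il1b, which encodes secreted interleukin-1 beta, had 57.9 FPKM in AT LSC and 7.88 in BL LSC, a fold of 2.88 ± 0.52 (q 9.59e-07 in the authors' deposited table). Il1a, the gene of membrane-bound and alarm interleukin-1 alpha, had 6.11 FPKM in AT LSC and 0.201 in BL LSC. Il6 (chromosome 5, 30013161 to 30019968), which encodes interleukin-6, had 61.0 FPKM in AT LSC, with bounds of 24.7 and 97.4, and 11.5 in BL LSC, with bounds of 6.69 and 16.4. Its fold was 2.40 ± 0.53 (q 9.49e-05 in the authors' deposited table). Tnf, the tumor necrosis factor gene, had 7.86 FPKM in AT LSC and 1.00 in BL LSC. In all 4 genes the bounds of AT LSC lay above those of BL LSC.

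**Figure D2:**
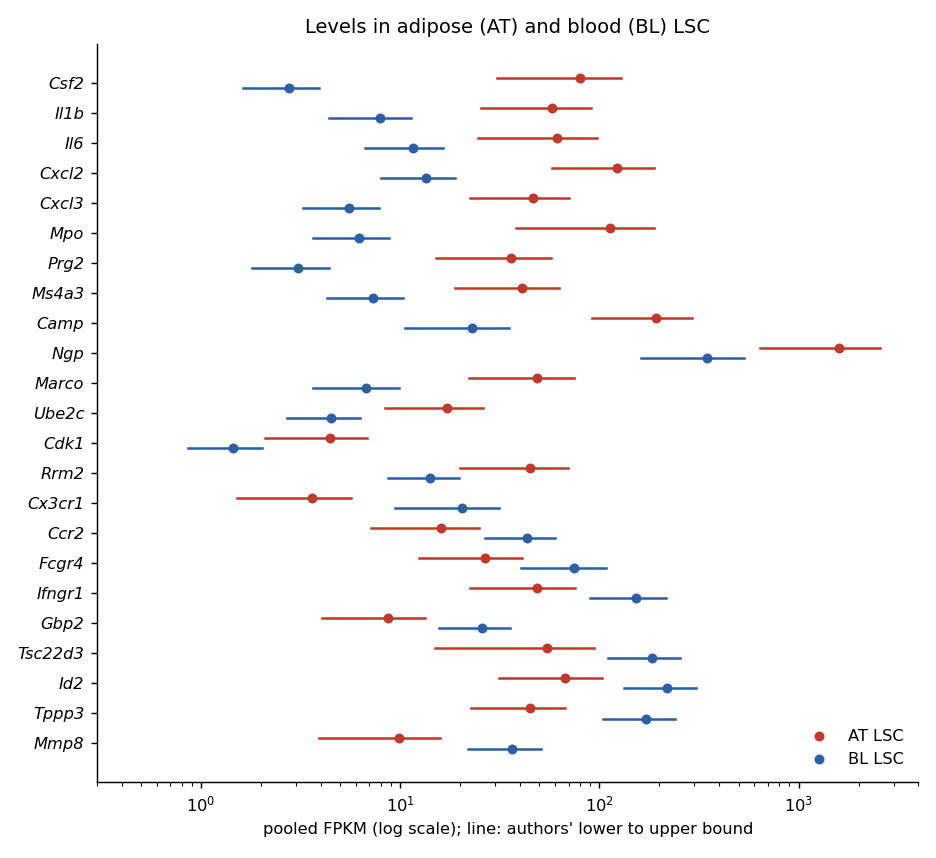
Pooled FPKM of 23 genes in AT LSC (red) and BL LSC (blue) on a log axis, with lines from the authors' lower to upper bound. Cytokine, granule and cell cycle genes, from Csf2 to Rrm2, lie higher in AT LSC, and the genes from Cx3cr1 to Mmp8, among them monocyte and interferon genes, lie lower.

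Chemokine genes were called in both directions. The authors' deposited table called 7 of 14 higher and 2 lower in AT LSC, against 3.35% and 3.01% of kept genes. The median fold was 0.89, and the adjustment within the comparison kept 6 higher and 1 lower. The neighbouring genes Cxcl1, Cxcl2 and Cxcl3, which encode attractants of neutrophils, were all higher. Cxcl2 had 123 FPKM in AT LSC and 13.4 in BL LSC, a fold of 3.20 ± 0.48 (q 2.30e-09 in the authors' deposited table). Cxcl3 had 46.4 FPKM in AT LSC and 5.52 in BL LSC, and Cxcl1 had 9.36 and 0.763 in the same groups. Cxcl10, a chemokine gene known for its response to interferon, had 8.39 FPKM in AT LSC and 0.568 in BL LSC. Lower was Ppbp, a chemokine gene of platelets, at 0.775 FPKM in AT LSC and 4.21 in BL LSC, and the other was the eosinophil attractant gene Ccl24, whose fold was -1.45 in the authors' deposited table and whose call was lost under each scaling and with the adjustment within the comparison. Of 6 tested platelet markers, 0 were higher and 1 was lower, Ppbp itself, and the list summed to 23.6 FPKM in AT LSC and 44.7 in BL LSC. Without the limit of 1 FPKM, 12 platelet markers had a test, of which 0 were called higher and 3 lower.

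The promoters of Cxcl2 and Il6 are shown because both genes were higher and because many genes of this kind carry a site for NF-kB close to the start. The stretch runs from 250 bases before the start to 50 after it, taken from RefSeq on GRCm38.p6 (the assembly called mm10), and each line is written 5′ to 3′ on the strand of the gene. Capitals mark the letters GGG and TTCC set 3 bases apart on either strand, a kappaB-like motif. Cxcl2 lies on the plus strand at chr5:90903649-90903948 and was added after its values were seen, and Il6 lies on the plus strand at chr5:30012864-30013163.
Cxcl2: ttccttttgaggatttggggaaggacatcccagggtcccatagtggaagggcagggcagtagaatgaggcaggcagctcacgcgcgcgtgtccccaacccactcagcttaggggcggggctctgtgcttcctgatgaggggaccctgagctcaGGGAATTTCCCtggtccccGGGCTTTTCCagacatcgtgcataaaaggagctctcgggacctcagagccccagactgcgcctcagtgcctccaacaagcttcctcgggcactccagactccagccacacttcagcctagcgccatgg
Il6: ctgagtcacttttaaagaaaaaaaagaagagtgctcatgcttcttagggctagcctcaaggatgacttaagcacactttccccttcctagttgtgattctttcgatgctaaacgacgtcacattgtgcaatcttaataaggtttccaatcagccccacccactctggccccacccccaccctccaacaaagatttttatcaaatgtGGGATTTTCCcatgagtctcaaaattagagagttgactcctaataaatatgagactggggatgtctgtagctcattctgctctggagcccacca

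Cxcl2 holds 3 matches, of which a pair lie on opposite strands of the same letters, and Il6 holds 1. The motif stands in 6.31% of 27025 genes with a promoter and in 7.78% of 5861 kept genes that matched the promoter table. Among chemokine genes 5 of 9 matched genes hold it, among NF-kB genes 8 of 17 and among cytokine genes 3 of 9. It also stands in 5 of 18 interferon response genes and 5 of 20 monocyte genes, lists with a negative median fold. Among other lists with a positive median fold, it stands in 3 of 11 MYC genes and 0 of 11 primary granule genes. These shares describe the lists and not a result of the comparison. Of the called genes it was found in 9.94% of those higher in AT LSC and 6.67% of those lower. A match describes letters and not a bound site, and Csf2 and Tnf had no match in this window.

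NF-kB subunit and feedback genes were higher in part. The authors' deposited table called 5 of 20 higher and 0 lower in AT LSC, against 3.35% and 3.01% of kept genes. The median fold was 0.53, and the adjustment within the comparison kept 3 higher and 0 lower. Nfkbid, an inhibitor-like regulator in the nucleus, had 2.94 FPKM in AT LSC and 0.589 in BL LSC, a fold of 2.32 ± 0.50 (q 7.90e-05 in the authors' deposited table). Nfkbiz, a related regulator needed for Il6 induction, had 5.59 FPKM in AT LSC and 1.82 in BL LSC. Icam1, an adhesion receptor for neutrophils and monocytes, had 25.1 in AT LSC and 8.22 in BL LSC, and Rel, a subunit gene, 3.61 and 1.31. AT LSC had the highest level of the 5 groups in 12 of the 20, against 9.80% of kept genes.

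Immediate early genes, which are transcribed without new protein synthesis, had 23 tested members, at a median fold of 0.56. Of these, the authors' deposited table called 6 higher and 0 lower in AT LSC, against 3.35% and 3.01% of kept genes. Fosl1, a partner in the AP-1 dimer, had 3.15 FPKM in AT LSC and 0.282 in BL LSC. Nr4a2, an orphan nuclear receptor, had 1.4 in AT LSC and 0.258 in BL LSC, and Fosb had 3.87 and 1.08. Fosl1 and Nr4a2 reached the level kept through AT LSC alone. Without that limit, 7 of 27 tested immediate early genes were called higher and 0 lower. Egr1, an early growth response factor, had 4.25 FPKM in AT LSC and 1.36 in BL LSC, yet 10.7 in BM LSC, so AT LSC was not the highest group for it. Nr4a1, a nuclear receptor needed by patrolling monocytes, went the other way in value, at 49.4 FPKM in AT LSC and 75.5 in BL LSC, and was not called (q 0.446 in the authors' deposited table).

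Genes of macrophage uptake and killing were mixed, with a median fold of -0.39. Of 18 tested, the authors' deposited table called 5 higher and 1 lower in AT LSC, against 3.35% and 3.01% of kept genes. With the adjustment within the comparison 2 were higher and 0 lower. Marco, a scavenger receptor for bacteria, had 48.5 FPKM in AT LSC, 6.72 in BL LSC and 0.251 in BM LSC, with a fold of 2.85 ± 0.51 (q 1.02e-06 in the authors' deposited table). Irg1, which encodes the enzyme that makes itaconate, had 8.62 FPKM in AT LSC and 0.356 in BL LSC. Hmox1, heme oxygenase, had 209 in AT LSC and 69.0 in BL LSC, and Ptgs2, the inducible prostaglandin enzyme, 9.41 and 2.60. Emr1, the gene of the macrophage antigen F4/80, was the 1 lower, at 46.0 FPKM in AT LSC and 122 in BL LSC (q 0.03 in the authors' deposited table). Niacr1, a receptor for niacin and ketone bodies, had 14.0 FPKM in AT LSC and 0.925 in BL LSC.

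Of 19 sensing genes the authors' deposited table called 1 higher and 2 lower in AT LSC, against 3.35% and 3.01% of all kept genes. Nlrp3, the sensor of an inflammasome, had 2.73 FPKM in AT LSC and 0.812 in BL LSC. Tlr7, a sensor of single-stranded RNA, had 1.16 FPKM in AT LSC and 4.22 in BL LSC, and Tlr13, which senses bacterial ribosomal RNA in mice, 7.99 and 22.7.

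Genes of primary granules were higher in AT LSC in part. Of 15 tested, 9 had a positive and 6 a negative fold. BL LSC had the lowest level of all groups in 8, against 27.5% of kept genes, and the highest in 4, against 24.1%. The list summed to 2006 FPKM in AT LSC and 2253 in BL LSC. The authors' deposited table called 4 of 15 higher and 0 lower in AT LSC, against 3.35% and 3.01% of kept genes. The adjustment within the comparison also gave 4 and 0. The median fold was 1.15, and 0.61 over the 16 tested without the limit of 1 FPKM. Mpo (chromosome 11, 87793784 to 87804412) encodes myeloperoxidase, the enzyme that makes hypochlorous acid. It had 113 FPKM in AT LSC, with bounds of 38.1 and 189, and 6.23 in BL LSC, with bounds of 3.64 and 8.82. BM LSC had 107, SPL LSC 120 and NBM 524, so the level in AT LSC was near that of BM LSC and SPL LSC while BL LSC stood below. The fold was 4.19 ± 0.57 (q 1.77e-11 in the authors' deposited table).

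Prg2 and Epx, granule protein genes of eosinophils, and Ms4a3, a membrane protein gene of granulocyte progenitors, were also lowest in blood. Prg2 had 36.1 FPKM in AT LSC, 3.08 in BL LSC and 47.3 in BM LSC. Epx had 6.84 in AT LSC, 0.493 in BL LSC and 7.81 in BM LSC, and Ms4a3 had 40.8, 7.30 and 49.2 in the same order. Epx reached the level kept through AT LSC alone. Elane, the neutrophil elastase gene, had 128 FPKM in AT LSC and 6.25 in BL LSC but wide bounds that overlapped, and its fold of 4.35 ± 3.11 was not called (q 0.368 in the authors' deposited table). Of 6 tested eosinophil markers, the authors' deposited table called 2 higher (Prg2 and Epx) and 1 lower, against 3.35% and 3.01% of kept genes. The lower was Siglec5, at 3.25 FPKM in AT LSC and 8.45 in BL LSC.

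Late granule and alarmin genes stood highest of the 5 groups in AT LSC in 9 of 19, against 9.80% of kept genes, and in BL LSC in 8 of 19, against 24.1%. Of these 19, the authors' deposited table called 6 higher and 2 lower in AT LSC, against 3.35% and 3.01% of kept genes. With the adjustment within the comparison 3 were higher and 1 lower, and the median was 0.46. Camp, the gene of the antimicrobial peptide cathelicidin, had 192 FPKM in AT LSC, 22.8 in BL LSC and 40.6 in BM LSC. Its fold was 3.07 ± 0.54 (q 5.33e-07 in the authors' deposited table). Ngp, neutrophilic granule protein, had 1605 FPKM in AT LSC, with bounds of 643 and 2567, and 348 in BL LSC, with bounds of 163 and 534. S100a9, a subunit of calprotectin, had 707 FPKM in AT LSC and 215 in BL LSC, and Cebpe, the factor that drives secondary granule genes, had 3.21 and 0.447. Cebpe was the 1 higher of 9 C/EBP and myeloid fate factors in the authors' deposited table, and Id2 the 1 lower. Lower were the collagenase gene Mmp8, at 9.91 FPKM in AT LSC and 36.5 in BL LSC, and the gelatinase gene Mmp9, at 1.02 in AT LSC and 3.16 in BL LSC. Of 12 tested markers of mature neutrophils, 3 were higher and 2 lower in the authors' deposited table (0 and 1 with the adjustment within the comparison), and Cxcr2, the receptor that neutrophils use for CXCL2, had 3.43 FPKM in AT LSC and 7.70 in BL LSC without a call (q 0.0863 in the authors' deposited table). In bulk RNA, a smaller share of cells of a type and less RNA per cell cannot be told apart.

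Mitosis genes were lowest in blood without exception on the list used. All 28 tested had a positive fold, and the median fold was 1.34 against -0.17 over all kept genes. The authors' deposited table called 18 higher and 0 lower in AT LSC, against 3.35% and 3.01% of kept genes. With the adjustment within the comparison 4 were higher and 0 lower. BL LSC had the lowest level of the 5 groups in 28 of 28, against 27.5% of kept genes, and the list summed to 176 FPKM in AT LSC, 79.3 in BL LSC, 436 in BM LSC and 590 in SPL LSC. Ube2c, the ubiquitin ligase partner that ends mitosis, had 17.2 FPKM in AT LSC, with bounds of 8.39 and 26.0, and 4.48 in BL LSC, with bounds of 2.69 and 6.26. Its fold was 1.94 ± 0.47 (q 0.000488 in the authors' deposited table), and the levels in BM LSC, 31.3, and SPL LSC, 37.5, lay above both. Cdk1, the kinase of mitotic entry, had 4.44 FPKM in AT LSC, 1.45 in BL LSC and 10.2 in BM LSC. Mki67, the proliferation antigen gene, had 6.51 FPKM in AT LSC and 2.90 in BL LSC and was not called (q 0.0732 in the authors' deposited table), though it was with median centring and total count scaling.

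The promoters of Cdk1 and Ube2c are shown because mitosis genes are known to pair a CCAAT box with a cell cycle element called CHR. Capitals mark CCAAT and TTTGAA on either strand, so that ATTGG and TTCAAA also count, and a CCAAT read on both strands can overlap itself. Cdk1 lies on the minus strand at chr10:69352863-69353162, and Ube2c on the plus strand at chr2:164769679-164769978.
Cdk1: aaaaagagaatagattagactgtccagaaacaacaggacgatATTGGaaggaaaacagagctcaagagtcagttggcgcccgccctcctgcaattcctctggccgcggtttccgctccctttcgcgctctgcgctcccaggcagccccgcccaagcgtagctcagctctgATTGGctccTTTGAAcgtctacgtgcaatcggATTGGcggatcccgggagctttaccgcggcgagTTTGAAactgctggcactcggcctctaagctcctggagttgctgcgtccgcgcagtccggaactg
Ube2c: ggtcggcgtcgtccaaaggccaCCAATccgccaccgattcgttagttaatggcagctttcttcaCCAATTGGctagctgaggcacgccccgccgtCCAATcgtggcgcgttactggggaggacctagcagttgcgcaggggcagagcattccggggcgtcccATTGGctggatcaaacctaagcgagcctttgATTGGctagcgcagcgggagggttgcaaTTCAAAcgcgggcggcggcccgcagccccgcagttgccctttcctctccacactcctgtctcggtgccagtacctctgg

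Cdk1 holds 5 matches and Ube2c 7. TTTGAA stands in 20.2% of all genes with a promoter and in 15.3% of matched kept genes, and 17 of 24 matched mitosis genes hold it. CCAAT stands in 41.1% of all genes and 43.8% of matched kept genes, and in 19 of 24 mitosis genes and 17 of 24 replication genes. These shares describe a known feature of the lists and not a result of the comparison.

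Genes of DNA replication and nucleotide synthesis had 29 tested members, and the authors' deposited table called 6 higher and 0 lower in AT LSC (3 and 0 with the adjustment within the comparison, 14 and 0 with total count scaling). BL LSC were lowest in 27 of the 29, against 27.5% of kept genes, and the median was 1.12. Over all kept genes, 3.35% were called higher and 3.01% lower. Cdc6, which loads the replicative helicase, had 3.85 FPKM in AT LSC and 0.879 in BL LSC, a fold of 2.13 ± 0.51 (q 0.000464 in the authors' deposited table). Rrm2, a subunit of ribonucleotide reductase, had 44.6 FPKM in AT LSC, 14.2 in BL LSC and 56.0 in BM LSC. Of 8 tested DNA repair genes 1 was higher, Rad51ap1, which aids strand exchange, at 2.69 FPKM in AT LSC and 0.869 in BL LSC. E2f8, a repressor of the E2F family, was the 1 called of 12 kept factors and cyclins of the G1 phase, at 2.38 FPKM in AT LSC and 0.674 in BL LSC. Cdc6, Rad51ap1 and E2f8 reached the level kept through AT LSC alone. Without that limit, 6 of 36 replication genes, 3 of 22 repair genes and 2 of 21 G1 genes were called higher and 0 lower. Over all genes with a test, 4.01% were higher and 2.51% lower. Of 16 tested CDK inhibitors and antiproliferative genes, 3 were higher in the authors' deposited table (2 with the adjustment within the comparison), all of them stress-induced Gadd45 genes: Gadd45b had 6.90 FPKM in AT LSC and 0.938 in BL LSC. Cdkn1a, the inhibitor p21, had 41.8 FPKM in AT LSC and 33.5 in BL LSC and was not called.

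**Figure D3:**
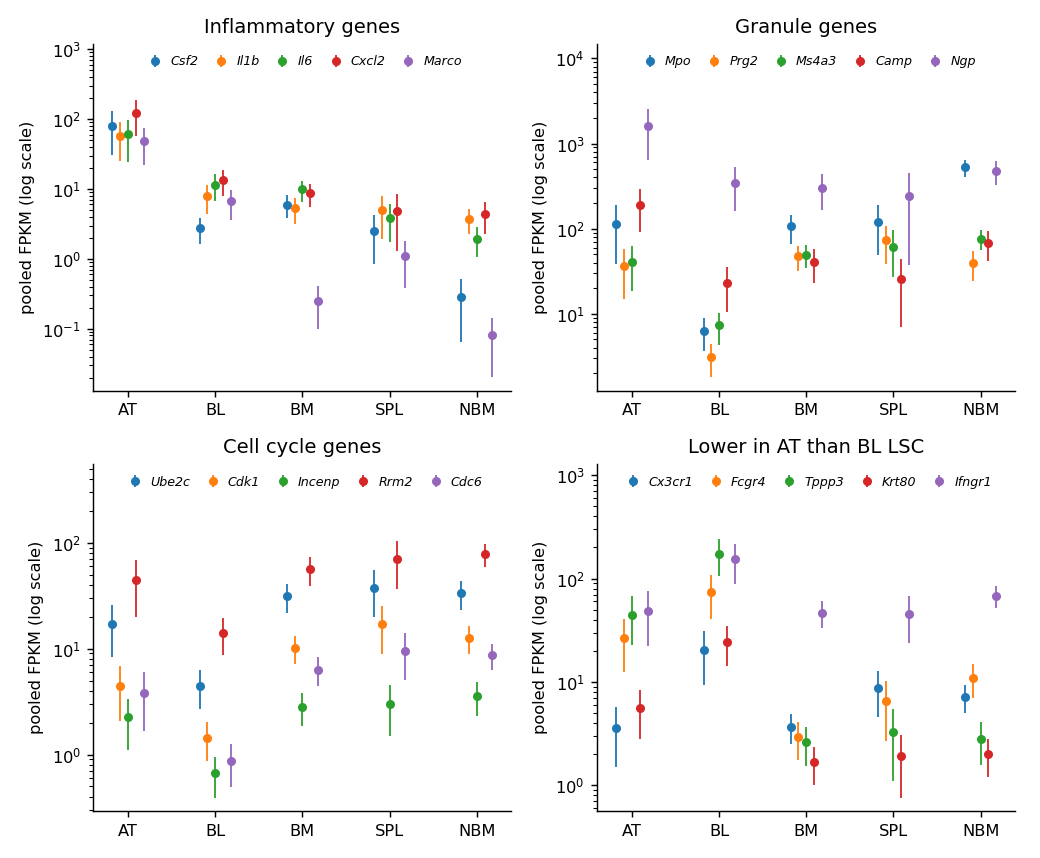
Pooled FPKM (log axis) of 4 kinds of genes in AT, BL, BM and SPL LSC and in NBM, with lines from the lower to the upper bound. Csf2 and Marco peak in AT LSC, Mpo and the cell cycle genes dip in BL LSC, and Tppp3 and Krt80 peak in BL LSC with AT LSC next.

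Growth genes comprised MYC targets and genes of ribosome synthesis. The authors' deposited table called 5 of 13 MYC family genes and targets higher and 0 lower in AT LSC. Over all kept genes the shares were 3.35% and 3.01%. The median fold was 0.82, and the adjustment within the comparison kept 2 higher and 0 lower. Odc1, the first enzyme of polyamine synthesis, had 5.45 FPKM in AT LSC and 1.53 in BL LSC, and Mthfd2, a mitochondrial folate enzyme, had 23.5 and 7.57. Myc itself had 11.1 FPKM in AT LSC, 5.90 in BL LSC and 33.5 in BM LSC and was not called (q 0.193 in the authors' deposited table). All 23 tested nucleolar genes of ribosome biogenesis had a positive fold, with a median of 0.70. BL LSC were lowest in 23 of 23, against 27.5% of kept genes. By Cuffdiff 0 were called in either direction, and 2 were higher at an unadjusted p below 0.05. Cytosolic ribosomal protein genes had a median of 0.08 and 0 calls among 30, and 1 was higher at the unadjusted threshold.

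Stress genes of the ATF4 pathway, which answers shortage of amino acids, had 17 tested members, at a median fold of 0.87. The authors' deposited table called 6 of them higher and 0 lower in AT LSC, against 3.35% and 3.01% of kept genes. With the adjustment within the comparison 4 were higher and 0 lower. Without the limit of 1 FPKM, 6 of 19 tested were called higher and 0 lower, against 4.01% and 2.51% of all genes with a test. Chac1, which degrades glutathione, had 6.90 FPKM in AT LSC and 0.456 in BL LSC, a fold of 3.92 ± 0.61 (q 9.50e-09 in the authors' deposited table). It reached the level kept through AT LSC alone. Trib3, a pseudokinase induced by ATF4, had 7.27 FPKM in AT LSC and 1.64 in BL LSC. Asns, asparagine synthetase, had 15.8 in AT LSC and 4.46 in BL LSC, though BM LSC had 46.4. Heat shock genes gave 0 calls by Cuffdiff among 15 with a median of 0.61, and 3 were higher at an unadjusted p below 0.05, as with total count scaling. Of 19 NRF2 targets the authors' deposited table called 3 higher and 0 lower in AT LSC (1 and 0 with the adjustment within the comparison), among them Osgin1, an oxidative stress response gene, at 10.2 FPKM in AT LSC and 3.54 in BL LSC.

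**Figure D4:**
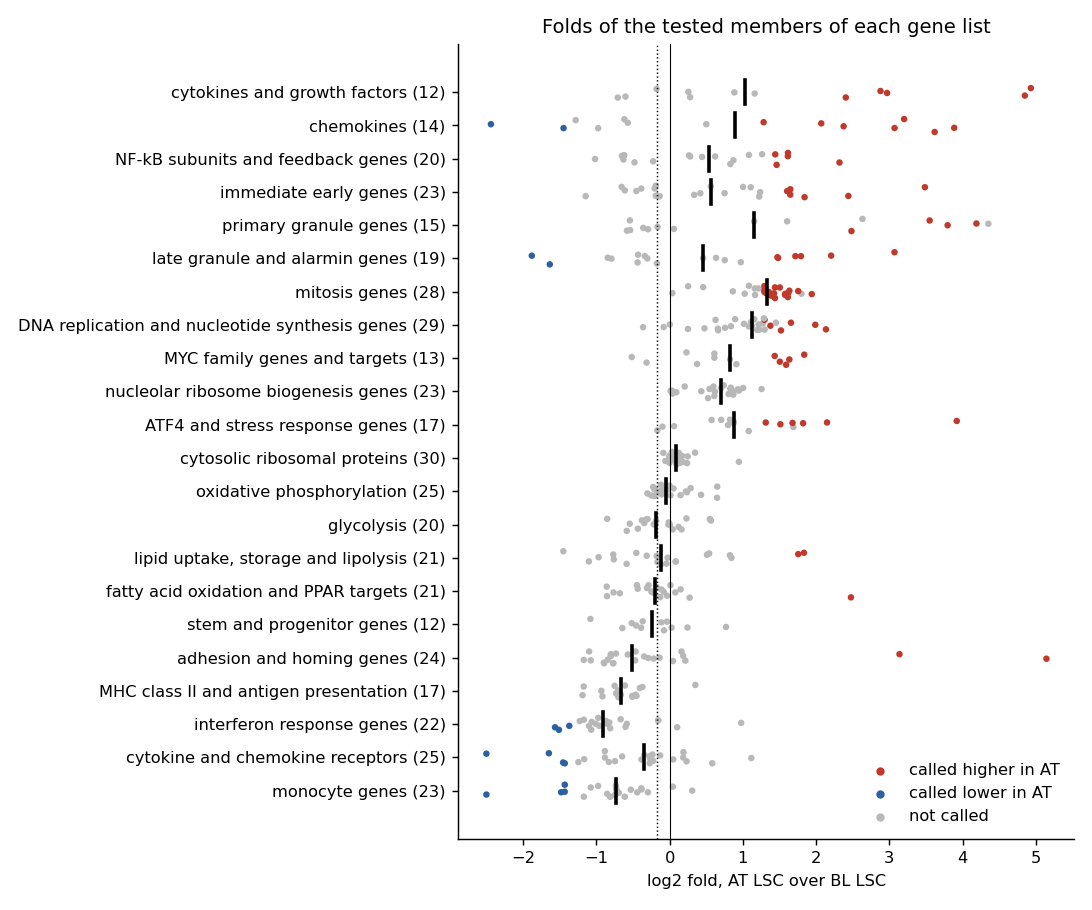
Log2 folds of AT LSC over BL LSC for the tested members of gene lists (number tested in brackets), with red for genes called higher in AT LSC, blue for lower and grey for not called. Thick bars mark list medians, the dotted line the median of all kept genes (-0.17), and points are spread vertically for legibility; cytokine, granule and mitosis lists reach right and monocyte genes left.

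Genes of fat handling were called at a share near the 6.36% of all kept genes. Of 21 tested genes of lipid uptake, storage and lipolysis, the authors' deposited table called 2 higher and 0 lower in AT LSC, and the median fold was -0.12, which turned to 0.12 with total count scaling. The pair were Dgat1, the last step of triglyceride synthesis, at 8.51 FPKM in AT LSC and 2.52 in BL LSC, and G0s2, an inhibitor of the fat lipase ATGL, at 8.26 and 2.32. Plin2, the lipid droplet coat of cells other than fat cells, had 304 FPKM in AT LSC, with bounds of 130 and 479, and 170 in BL LSC, with bounds of 103 and 236. Its fold of 0.84 ± 0.50 was not called (q 0.248 in the authors' deposited table), and both groups stood above the 40.8 FPKM of BM LSC and the 40.6 of SPL LSC. Cd36, a fatty acid transporter, had 24.4 FPKM in AT LSC and 41.3 in BL LSC, and Lpl, lipoprotein lipase, 11 in AT LSC and 11.2 in BL LSC. Neither was called.

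Fatty acid oxidation showed 1 call among 21, against 6.36% over all kept genes. The gene called was Angptl4, a PPAR target that inhibits lipoprotein lipase, at 4.73 FPKM in AT LSC and 0.851 in BL LSC (fold 2.47 ± 0.50, q 2.02e-05 in the authors' deposited table). Cpt1a, the gate of mitochondrial fatty acid import, had 8.56 FPKM in AT LSC and 14.5 in BL LSC and was not called (q 0.255 in the authors' deposited table). Pdk4, a PPAR target that limits glucose oxidation, was below the level kept, at 0.523 FPKM in AT LSC and 0.0842 in BL LSC, and was called higher in the authors' deposited table. Lists of glycolysis (20 tested), oxidative phosphorylation (25), cholesterol synthesis (20) and hypoxia (14) gave 0 calls by Cuffdiff in the authors' deposited table, and an unadjusted p below 0.05 was met by 0 of them apart from 2 lower hypoxia genes. Smaller changes than the smallest folds called, 1.18 and -1.16, would be missed, so these genes are not shown to be unchanged.

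Monocyte genes were called lower in part. Of 23 tested genes of patrolling and classical monocytes, the authors' deposited table called 4 lower and 0 higher in AT LSC. The shares over all kept genes were 3.01% and 3.35%. With the adjustment within the comparison 1 was lower and 0 higher, and likewise with total count scaling. Of the 23 folds 21 were negative, and the median was -0.73. BL LSC had the highest level of all groups in 18 of the 23, against 24.1% of kept genes. Cx3cr1 (chromosome 9, 120048683 to 120068296), the fractalkine receptor of patrolling monocytes, had 3.59 FPKM in AT LSC, with bounds of 1.51 and 5.67, and 20.3 in BL LSC, with bounds of 9.43 and 31.2. Its fold was -2.50 ± 0.57 (q 0.000194 in the authors' deposited table), the largest fall among genes at 10 FPKM or more that the naming rule could take. Ccr2, the receptor that brings classical monocytes out of the marrow, had 16.0 FPKM in AT LSC and 43.2 in BL LSC. Fcgr4, an activating Fc receptor, had 26.6 FPKM in AT LSC and 74.3 in BL LSC. Spn and Itgal, adhesion genes of circulating cells, had 11.4 and 12.1 FPKM in AT LSC, against 19.1 and 25.5 in BL LSC, and neither was called. Of 10 tested monocyte markers, which share members with this list, 4 were lower and 0 higher in AT LSC in the authors' deposited table (2 and 0 with median centring, 1 and 0 with total count scaling or the adjustment within the comparison), and they summed to 299 FPKM in AT LSC and 569 in BL LSC.

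Receptor genes for cytokines and chemokines had 25 tested members, at a median fold of -0.34. The authors' deposited table called 0 of them higher and 4 lower in AT LSC, against 3.35% and 3.01% of kept genes. Counts were 0 and 2 with the adjustment within the comparison, and 1 and 3 with total count scaling. Ifngr1, a chain of the interferon gamma receptor, had 48.8 FPKM in AT LSC and 153 in BL LSC, a fold of -1.65 ± 0.49 (q 0.00669 in the authors' deposited table). Of 22 genes that answer interferon, the authors' deposited table called 0 higher and 3 lower in AT LSC (0 and 1 with the adjustment within the comparison), at a median fold of -0.91. Gbp2, a guanylate-binding protein gene, had 8.66 FPKM in AT LSC and 25.6 in BL LSC. AT LSC were the lowest of the 5 groups in 12 of the 22, against 33.5% of kept genes. Antigen presentation genes had a median of -0.67, 16 of 17 negative folds and 0 calls by Cuffdiff in the authors' deposited table, and 3 were lower at an unadjusted p below 0.05.

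Other genes called lower in AT LSC were a mixed set. Tppp3, which stabilises microtubules, had 44.8 FPKM in AT LSC, 172 in BL LSC and 2.61 in BM LSC. Its fold was -1.94 ± 0.45 (q 0.000319 in the authors' deposited table). Krt80, a keratin gene, had 5.56 FPKM in AT LSC, 24.4 in BL LSC and 1.68 in BM LSC, and Slc52a3, a riboflavin transporter gene, had 7.40, 32.4 and 3.90 in the same order. In these 3 genes both AT LSC and BL LSC stood above BM LSC. Id2, an inhibitor of bHLH factors, had 67.1 FPKM in AT LSC and 219 in BL LSC. Tsc22d3, the glucocorticoid-induced leucine zipper gene, had 54.4 in AT LSC and 183 in BL LSC, and Fkbp5, a chaperone induced by glucocorticoids, 5.27 and 13.5. Of 8 tested glucocorticoid and clock genes, these 2 were called lower and 0 higher, against 3.01% and 3.35% of kept genes. With the adjustment within the comparison 0 were called.

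Of 24 genes for adhesion and homing, the authors' deposited table called 2 higher and 0 lower in AT LSC, at a median fold of -0.52, and the pair, Vcam1 and Esam, are also known from vessels and stroma. Vcam1, the ligand of the integrin VLA-4, had 1.55 FPKM in AT LSC, 0.0439 in BL LSC and 1.69 in BM LSC. Cxcr4, the receptor for the homing signal CXCL12, had 2.26 FPKM in AT LSC and 1.99 in BL LSC and was not called, while its ligand gene Cxcl12 had 1.67 in AT LSC and 0.0517 in BL LSC. The counts of calls in the lists of this paragraph stand against 6.36% called over all kept genes. Bcl2l11, the pro-death BIM gene, was the 1 called of 18 apoptosis genes, at 4.25 FPKM in AT LSC and 1.04 in BL LSC. Of 13 tested genes of iron handling 2 were higher, Hmox1 and the transferrin receptor gene Tfrc, the second at 4.01 FPKM in AT LSC and 1.57 in BL LSC. Of 26 lysosomal genes 1 was higher, the cathepsin gene Ctsk, and of 18 STAT5 and BCR-ABL targets 1 was lower, the kinase gene Fgr, at 11.9 FPKM in AT LSC and 30.0 in BL LSC.

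Some of these calls rest on the authors' adjustment over all comparisons. With the adjustment within the comparison, Ccr2, Fcgr4, Emr1, Tlr13, Tsc22d3, Fkbp5, Fgr, Mmp9, Siglec5 and Alas2 were no longer called lower in AT LSC, and Rel, Ptgs2, Hmox1, S100a9, Ccr7, Gadd45a, Ctsk and Tfrc were no longer called higher, with q-values of 0.0505 to 0.158 over these and the other genes concerned. Total count scaling ended the calls of Ccr2, Fcgr4, Emr1, Tsc22d3, Fkbp5, Fgr, Mmp9, Siglec5 and Alas2, and median centring and upper quartile scaling those of Fkbp5, Fgr and Mmp9.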

How the data were processed

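RNA-seq libraries were made with Clontech SMARTer chemistry and Illumina Nextera XT, per the labels' protocols. Reads were trimmed with Trimmomatic 0.32 and quantified on mm10 with Cufflinks 2.0.2 and Cuffdiff, per the submitters' processing notes. For the aligner and the annotation, the sources used here name none. The authors deposited a pooled FPKM per gene and group with bounds, an estimated count (the expected count of fragments), and, per comparison, a log2 fold of blood over adipose, a test statistic (a score), a p-value and a q-value. No column held a single library, so the planned test of replicates could not be run and the authors' deposited tests were copied. The p-value equalled the normal tail of the statistic within 0.0001 in 100% of genes, and q equalled a Benjamini-Hochberg adjustment over all 10 comparisons within 1.70e-06. The rescaling of folds with an adjustment within the comparison was tested on simulated data. The calls at the p-value of the authors' threshold were not simulated.

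Genes below 1 FPKM in both groups were left out. Of these, 5010 had a test and 339 were called, 254 higher and 85 lower in AT LSC. The 105 entries that merge genes stayed in, except in 1 alternative, and so did genes whose FPKM or locus differed between the deposited tables. Both kinds together made up 61 of the kept genes, 4 of them called. Estimated counts were 1.96e+07 in AT LSC and 1.95e+07 in BL LSC, and the 3 libraries behind each limit the precision.

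The members, the 51 gene lists (946 symbols, 933 found) and the alternatives were chosen with earlier results of these data known. Genes named were the 12 largest folds in each direction among called genes at 10 FPKM or more in the higher group, the 4 lowest q-values at most of the called members of a list, and a fixed set that includes Csf2, Mpo, Cx3cr1, Kit, Myc and Cd36, 121 in all. Predicted and merged genes were skipped, and no fold is given against 3 or fewer estimated counts. Other names were chosen after their values were seen. Promoters came from RefSeq (GRCm38.p6), searched on both strands. Python 3.11.15, pandas 2.3.3, numpy 2.4.6, scipy 1.17.1 and matplotlib 3.10.9 were used.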

Additional observations from a re-analysis of the deposited data

How the results depend on the processing

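The number of called genes depended on the adjustment and the filter. Against 511 calls (269 higher, 242 lower in AT LSC), an adjustment within the comparison gave 240 (162 and 78), q below 0.01 gave 229 (156 and 73), no FPKM filter 850 (523 higher) and a limit of 5 FPKM 248 (115 and 133). Scalings adjusted within the comparison gave 257 calls with median centring (63 lower), 300 with total counts (48 lower) and 247 with the upper quartile (64 lower). At the p-value of the authors' threshold, an alternative added after the data were seen, total count scaling gave 106 lower. The median fold of kept genes, -0.17, was 0.07 with total count scaling and between -0.22 and -0.06 otherwise.

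Of the 121 genes named by the rule, 28 lost their call with the adjustment within the comparison, 5 lost their call with median centring, 12 with total counts and 5 with the upper quartile, and Mki67 gained one with median centring and with total counts. No called gene among the 121 turned its direction, and the uncalled folds of Lpl (0.08, 0.21 and 0.05) and Hoxa9 (0.03, 0.16 and 0.0029) turned positive with median centring, total counts and the upper quartile, in that order. Medians of the lists of C/EBP factors (0.11), stem (0.00056), lipid (0.12), fatty acid (0.03), glycolysis (0.05) and lysosomal genes (0.11) turned positive with total count scaling, and that of oxidative phosphorylation with median centring (0.05), total counts (0.18) and the upper quartile (0.02). No paired analysis was possible because the deposited columns are pooled and carry no replicate, and for the same reason no replicate could be left out.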

Other observations

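Called genes lay next to each other in 13 runs of 3 or more, 59 genes in all, a description with no test. The longest was the stefin cluster on chromosome 16 (36119946 to 36455392 in mm10), where 10 neighbouring genes, including Csta, Stfa1, Stfa2 and Stfa3, inhibitors of cysteine proteases, had folds of 1.48 to 2.32 in the authors' deposited table. Their levels ran from 6.88 to 109 FPKM in AT LSC and from 1.49 to 23.9 in BL LSC. On chromosome 6, 8 neighbouring vomeronasal receptor genes (Vmn2r19 to Vmn2r26) were lower, with folds of -1.36 to -1.30 in the authors' deposited table, and 5 genes around Sirpb1a on chromosome 3 were lower, at -1.87 to -1.82. Near-identical copies can share reads in such clusters, so the value of a single copy is uncertain.

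Runs of less similar genes included C1ra, C1s and C1rb, complement proteases, with the predicted gene Gm5077, which were higher at 1.22 to 1.98 FPKM in AT LSC and 0.0141 to 0.180 in BL LSC. Ccl2, Ccl7, Ccl11 and Ccl1 on chromosome 11 were higher too, at 1.66 to 8.59 FPKM in AT LSC and 0.023 to 1.66 in BL LSC. Lower were 3 genes of the Gbp family on chromosome 3, at -1.56 to -1.37, and Irgm1 and Tgtp1, interferon-inducible GTPase genes, in a run of 5 on chromosome 11, at -1.69 to -1.20. With the adjustment within the comparison, Gbp3, Irgm1, Tgtp1, Vmn2r19, Vmn2r26, Stfa2, Ccl1 and Stfa2l1 of the stefin cluster were among the run members with no call. Total count scaling also ended the call of Gbp3.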
